A study of Mus musculus with 6 samples.

Results

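The MHC class I genes H2-K1, H2-D1, H2-Q6, H2-Q7, H2-T22, H2-T23 and H2-M3, the light chain gene B2m and the transactivator gene Nlrc5 were examined in primary oligodendrocyte precursor cells (OPCs). They were chosen by name, 9 of the 32049 target genes listed in either condition. The OPCs came from the brains of mouse pups aged 4 to 6 days, labelled as the strain C57BL/6j and the genotype Sox10-Cre/RCE in both groups, in which a Cre driven by Sox10 switches on a GFP reporter in the oligodendrocyte lineage. Per the study's methods the reporter line was of a mixed C57BL/6 and CD1 background. OPCs were sorted by Sox10-GFP or by CD140a, and several brains were pooled for each experiment. Ctr-OPCs were kept in proliferation medium (bFGF and PDGF-AA) and IFN-γ-OPCs received the same medium with 100 ng/mL IFN-γ, started 24 h after passaging. The study's culture methods give a treatment of 48 h, and the labels of these libraries do not state the duration.

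Contacts of chromatin carrying H3K27ac, a histone mark of active promoters and enhancers, were captured by HiChIP in 6 libraries, 3 per condition. The authors combined them with ATAC-seq and H3K27ac CUT&RUN in the activity-by-contact (ABC) model and deposited 1 table of element-gene pairs per condition. Each value below is therefore 1 value of a pooled table, with no replicate error, no p-value and an unknown read depth. The ABC score of a pair is the activity of the element times its contact with the gene, divided by the sum of that product over all elements of the gene. This sum is called the gene total here, and it has the units of activity times contact. The tables begin at a score of 0.02 and leave out genes whose promoter activity quantile is under 0.4, so a gene that is not listed may have missed either limit. A pair with a score above 0.05 is called a connection.

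MHC class I molecules carry peptides from inside the cell to its surface, where CD8+ T cells and NK cells read them. H2-K1 and H2-D1 encode the classical heavy chains, and the Q, T and M genes encode nonclassical chains with narrower tasks. B2m encodes the light chain that every one of these heavy chains binds. IFN-γ raises the factor IRF1 in many cell types, and NLRC5 is recruited to an SXY module in class I promoters that is bound by RFX, CREB/ATF and NF-Y factors. Brain cells are known to carry little class I at rest and more under inflammation.

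The promoters of H2-K1, H2-D1, H2-T23 and B2m are shown because promoter activity at these genes is compared below. Those of H2-K1 and H2-D1 held the same motifs, and those of H2-T23 and B2m held other sets. The deposited start site of H2-D1, at 35262730, lies before the stretch printed for it. That stretch may therefore not be the region whose activity was taken. For H2-T23 the deposited start site, at 36032855, lies inside the printed stretch. The sequences are from the RefSeq promoters of GRCm38.p6, from 200 bases before the start site to 20 bases from it, written 5′ to 3′ on the strand of the gene. The regions are chr17:34000328-34000547 on the minus strand for H2-K1, chr17:35262894-35263113 on the plus strand for H2-D1, chr17:36032682-36032901 on the minus strand for H2-T23 and chr2:122147487-122147706 on the plus strand for B2m. Capitals mark every match, on either strand, to GAAANNGAA or GAANNGAAA (both parts of an interferon response element), TTCNNNGAA (the palindrome of gamma-activated sites), GGGATTCCC (a kappa B site), TGACG (part of the CREB/ATF site of the SXY module) and ATTGG (the NF-Y box).
H2-K1 promoter: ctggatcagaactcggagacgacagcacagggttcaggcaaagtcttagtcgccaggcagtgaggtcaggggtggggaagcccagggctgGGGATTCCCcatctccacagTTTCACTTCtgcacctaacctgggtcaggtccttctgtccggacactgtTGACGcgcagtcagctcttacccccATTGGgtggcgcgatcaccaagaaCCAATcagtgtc
H2-D1 promoter: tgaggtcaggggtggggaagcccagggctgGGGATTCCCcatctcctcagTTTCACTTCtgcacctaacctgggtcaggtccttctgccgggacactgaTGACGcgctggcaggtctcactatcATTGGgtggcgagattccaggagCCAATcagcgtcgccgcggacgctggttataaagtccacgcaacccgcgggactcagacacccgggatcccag
H2-T23 promoter: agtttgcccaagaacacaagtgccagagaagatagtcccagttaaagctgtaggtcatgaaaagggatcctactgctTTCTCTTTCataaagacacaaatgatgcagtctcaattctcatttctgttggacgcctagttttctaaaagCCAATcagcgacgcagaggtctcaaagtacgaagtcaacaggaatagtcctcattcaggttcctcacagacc
B2m promoter: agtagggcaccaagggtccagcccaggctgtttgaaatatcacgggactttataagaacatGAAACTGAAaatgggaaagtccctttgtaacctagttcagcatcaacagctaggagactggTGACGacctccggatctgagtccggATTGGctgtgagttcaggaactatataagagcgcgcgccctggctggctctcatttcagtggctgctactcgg

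Of the 9 genes, 8 had an entry among the RefSeq promoters, and Nlrc5 was not matched. Over windows from 250 bases before to 50 after the start site, GGGATTCCC was held by 4 of the 8 promoters, those of H2-K1, H2-D1, H2-Q6 and H2-Q7, against 0.353% of 32851 promoters of the same length. GAANNGAAA was held by 5 of the 8, the same 4 and H2-M3, against 7.52% of all promoters. This motif was added after the others had been chosen. GAAANNGAA was held by H2-T22, H2-T23 and B2m, 3 of the 8 against 8.56%. Each of the 8 promoters therefore held 1 of these interferon-type motifs, and the H2-K, H2-D and H2-Q promoters held the form with the other spacing. TTCNNNGAA was found in H2-M3 alone, 1 of 8 against 8.30%. TGACG was held by 6 of 8 against 20.8%, and ATTGG by 8 of 8 against 37.4%. In H2-K1 the kappa B match began at -110 from the start site and the interferon-type match at -90. In H2-D1 they began at -170 and -150, from a RefSeq start site that lies 364 bp from the start of the gene in GENCODE. For H2-T23 that distance is 154 bp. The heavy chain genes are copies of each other, so their promoters do not give independent counts, and a match is a description of letters.

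The promoters ranked higher with IFN-γ at each of the 5 genes listed in both conditions. The promoter activity quantile places the ATAC-seq and H3K27ac signal of a promoter among all promoters of its condition. For H2-K1 it was 0.677 in Ctr-OPCs and 0.911 with IFN-γ. The H2-D1 promoter stood at 0.822 and 0.928. The values of these genes of the classical chains were closer to each other with IFN-γ than in Ctr-OPCs. They are single ranks with no replicate spread, so this is a description only. Among the nonclassical genes, H2-T23, which encodes the Qa-1 chain that is read by NK cell receptors, had quantiles of 0.703 and 0.801. H2-M3, whose product presents formylated peptides, had 0.753 and 0.794, the smallest difference of the 5 genes. B2m had 0.846 and 0.963, the highest quantile among the listed genes of the set in both conditions. In these bulk cultures, more cells with an active promoter and more signal per cell cannot be told apart. The promoters were not searched for matches elsewhere in the genome. Whether reads were lost or shared among the alike heavy chain promoters was not tested.

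The remaining 4 genes were listed in 1 condition. H2-Q6 was listed in Ctr-OPCs, at a quantile of 0.742. In IFN-γ-OPCs H2-Q7 stood at 0.915, H2-T22 at 0.910 and Nlrc5 at 0.953. The values of these 3 in Ctr-OPCs, and of H2-Q6 in IFN-γ-OPCs, are not in the tables and may lie below 0.4 or belong to a gene with no pair at the lowest score. In order of the quantile with IFN-γ the genes ran B2m, Nlrc5, H2-D1, H2-Q7, H2-K1, H2-T22, H2-T23 and H2-M3. Without a replicate spread no neighbours in this order can be called different.

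**Figure D1:**
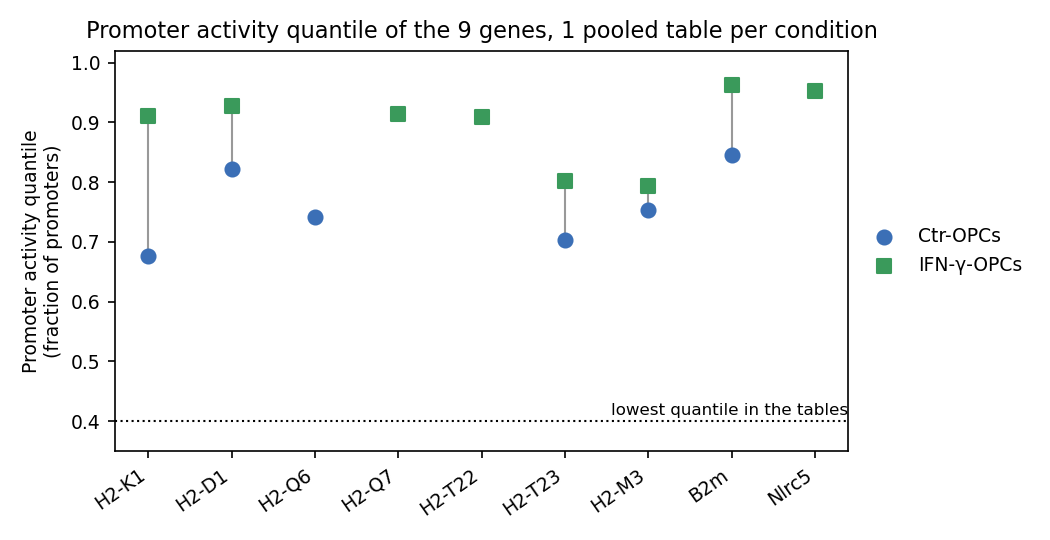
Promoter activity quantile (y axis, fraction) of each of the 9 genes (x axis) in the pooled tables of Ctr-OPCs (circles) and IFN-γ-OPCs (squares), with a line joining the values of a gene listed in both; there are no error bars because each condition has 1 table. The square is above the circle in all 5 joined genes, with the longest line at H2-K1 (0.677 to 0.911).

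The quantile was higher with IFN-γ in 5 of the 5 genes listed in both tables, against 49.5% of 20321 genes. The median difference over the 5 genes was 0.106, and over all genes -0.000362, with 80% of all genes between -0.0879 and 0.0904. H2-K1 (0.234), B2m (0.117), H2-D1 (0.106) and H2-T23 (0.0988) lay above that range, and H2-M3 (0.0414) lay inside it. A quantile is a rank, so these differences are changes of place among promoters and not folds of signal.

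**Figure D2:**
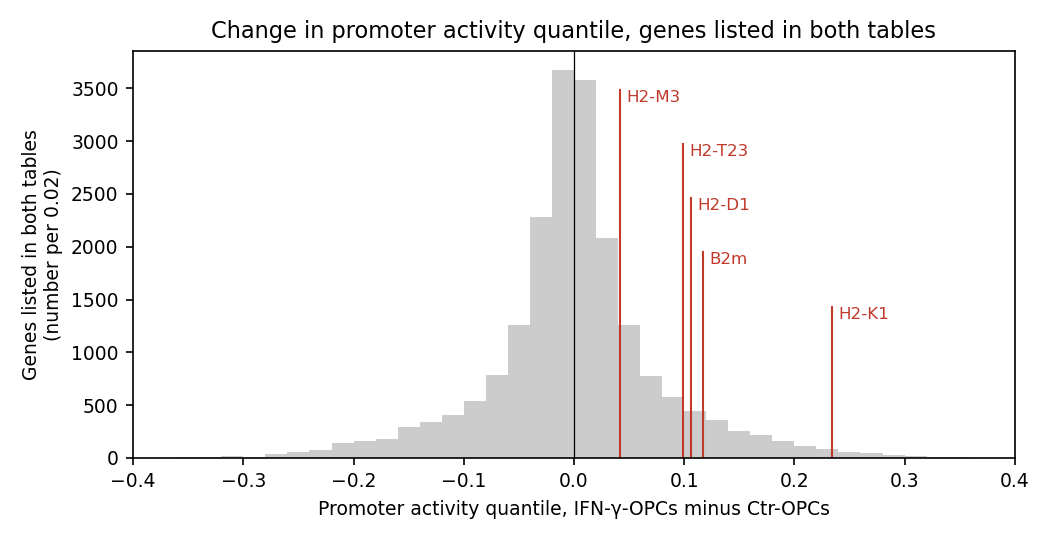
Difference in promoter activity quantile, IFN-γ-OPCs minus Ctr-OPCs (x axis), for the 20321 genes listed in both tables (grey bars, number of genes per 0.02), with red lines at the 5 class I pathway genes listed in both; the heights of the red lines carry no value. The 5 lines lie to the right of 0, from 0.0414 at H2-M3 to 0.234 at H2-K1.

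The 9 genes had 13 listed pairs in Ctr-OPCs and 14 with IFN-γ, with 13 and 12 elements. None of the 13 pairs in Ctr-OPCs was a connection, and 2 of the 14 in IFN-γ-OPCs were, 1 of H2-K1 and 1 of H2-D1. The number of connections was higher in 2 of the 9 genes, against 14.9% of the 32049 target genes, and with 9 genes this count is not set apart from that background. At a cut-off of 0.1 neither condition had a connection, and the power-law score gave 2 in each. The number of listed pairs was higher in 5 of the 9 genes, against 42.4%. Scores ran from 0.0204 to 0.0427 in Ctr-OPCs and from 0.0206 to 0.0569 in IFN-γ-OPCs. The listed pairs held a small part of each gene total, with a median of 5.39% in Ctr-OPCs and 5.86% with IFN-γ over the listed members, against 7.51% and 7.91% over all genes. No listed pair of either condition was marked as a gene with its own promoter. What part of a total came from the promoter or from unlisted elements was not tested. Leaving out the pairs of H2-M3, the listed elements lay 0.948 to 35.7 kb from the start site in Ctr-OPCs and 0.897 to 45.6 kb in IFN-γ-OPCs.

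**Figure D3:**
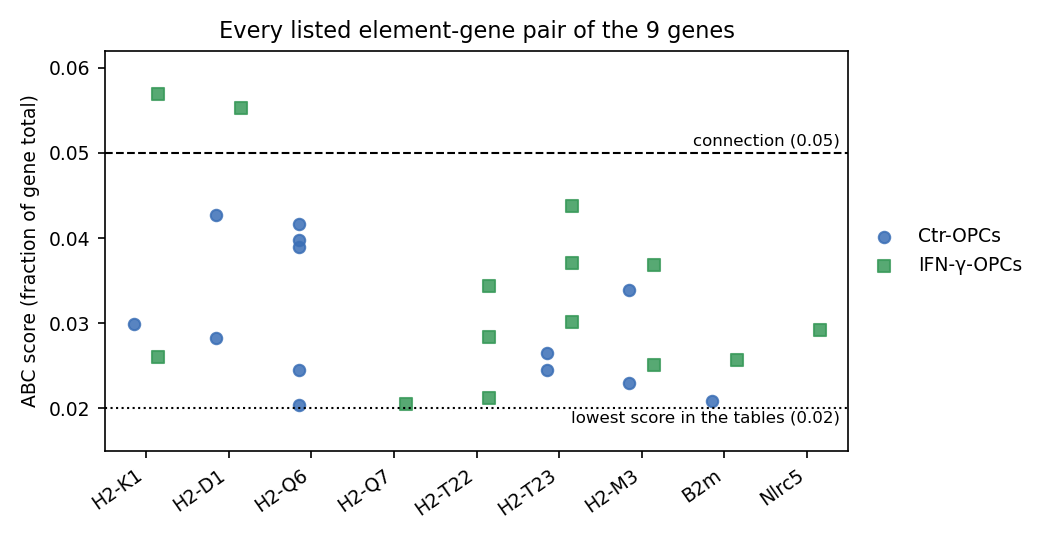
ABC score (y axis, fraction of the gene total) of every listed element-gene pair of the 9 genes (x axis) in Ctr-OPCs (circles) and IFN-γ-OPCs (squares), with the cut-off for a connection dashed and the lowest listed score dotted. The 2 squares above the cut-off belong to H2-K1 (0.0569) and H2-D1 (0.0553), and all 13 circles lie below it.

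Stretches of 3 elements described next, of H2-K1, H2-D1 and H2-T23, are shown around their matches to GAAANNGAA. They are 300 bases each from the plus strand of GRCm38, with the same capitals as above. The stretches are chr17:34010979-34011278 from the intergenic element of H2-K1, chr17:35258040-35258339 from the intergenic element of H2-D1 and chr17:36023637-36023936 from the element in an intron of A930015D03Rik that was listed with H2-T24 and H2-T23.
H2-K1 element: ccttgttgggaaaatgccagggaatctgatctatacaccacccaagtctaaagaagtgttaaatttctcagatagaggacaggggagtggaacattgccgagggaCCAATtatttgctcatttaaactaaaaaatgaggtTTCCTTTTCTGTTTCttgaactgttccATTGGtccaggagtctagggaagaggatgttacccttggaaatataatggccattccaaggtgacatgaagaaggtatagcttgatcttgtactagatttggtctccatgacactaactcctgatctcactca
H2-D1 element: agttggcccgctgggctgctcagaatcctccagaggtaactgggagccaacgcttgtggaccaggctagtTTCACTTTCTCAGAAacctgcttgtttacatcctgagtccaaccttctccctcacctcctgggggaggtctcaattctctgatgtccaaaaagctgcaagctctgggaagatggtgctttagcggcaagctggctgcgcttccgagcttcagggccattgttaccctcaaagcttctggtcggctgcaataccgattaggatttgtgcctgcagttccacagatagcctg
H2-T24 and H2-T23 element: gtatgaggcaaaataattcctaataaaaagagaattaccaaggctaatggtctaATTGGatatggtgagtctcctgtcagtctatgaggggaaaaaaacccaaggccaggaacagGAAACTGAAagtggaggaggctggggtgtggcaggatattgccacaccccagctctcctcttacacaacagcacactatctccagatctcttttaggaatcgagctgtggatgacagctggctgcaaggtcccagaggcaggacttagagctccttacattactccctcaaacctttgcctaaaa

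The connection of H2-K1 was with an intergenic element about 12 kb upstream. The element spanned chr17:34011362-34013811 in Ctr-OPCs (2450 bp) and chr17:34010189-34014247 in IFN-γ-OPCs (4059 bp). Activity stood at 1.34 in Ctr-OPCs and 2.28 with IFN-γ, a log2 ratio of 0.76. Per kb of element the activity was 0.549 and 0.561, a log2 ratio of 0.03, so the gain went with the greater width. The adjusted contact with H2-K1 was 0.0382 and 0.0469, a log2 ratio of 0.30. The score was 0.0299 and 0.0569, and the element was listed with 2 target genes in Ctr-OPCs and 7 with IFN-γ, among them Ring1.

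The 1173 bp that the IFN-γ-OPC element added toward H2-K1 held 4 matches to GAAANNGAA and 1 to TTCNNNGAA. The 2450 bp common to both conditions held 0 matches to either, and held 1 match to GAANNGAAA, of which the added part toward H2-K1 held 0. The listed elements as a whole held 0.293 matches to GAAANNGAA per kb in Ctr-OPCs and 0.382 with IFN-γ. The stretch printed above covers 2 of the 4 matches, which overlap in the run TTCCTTTTCTGTTTC. In the central 500 bp, GAAANNGAA was held by 2 of the 13 member elements in Ctr-OPCs and 5 of the 12 with IFN-γ, against 13.7% and 17% of all listed elements. GAANNGAAA was held by 0 of 13 and 1 of 12, against 13.1% and 15.1%. TTCNNNGAA was held by 1 of 13 and 2 of 12, against 13.9% and 15.2%.

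H2-K1 was listed with a second element in IFN-γ-OPCs, at chr17:34025674-34026173 over a UTR of H2-Ke6, 25.6 kb upstream, with a score of 0.0260. This element was also listed in Ctr-OPCs, with 8 other genes. Its activity was 1.69 in Ctr-OPCs and 2.52 with IFN-γ, 1.49-fold. In Ctr-OPCs its adjusted contact with H2-K1 was below 0.0203, the value at which the pair would have been listed, and in IFN-γ-OPCs it was 0.0193. No difference in contact can be read from the new listing.

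The connection of H2-D1 was with an intergenic element 4.4 kb upstream, at chr17:35258069-35258568 in Ctr-OPCs and chr17:35258040-35258539 with IFN-γ. Its activity was 1.05 in Ctr-OPCs and 1.14 with IFN-γ, a log2 ratio of 0.12. Its adjusted contact was 0.0699 and 0.0956, a log2 ratio of 0.45. The score was 0.0427 and 0.0553. At H2-D1 the difference in contact was thus larger than that in activity. At H2-K1 the reverse held for the activity of the whole element, and not for activity per kb. The printed stretch shows a GAAANNGAA match and a TTCNNNGAA match that share bases, in the run TTCACTTTCTCAGAA. H2-D1 had another pair in Ctr-OPCs, with an element over Ddx39b at chr17:35252793-35255482 (activity 2.35, score 0.0283), and no listed element overlapped it in IFN-γ-OPCs.

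H2-T23 had 2 pairs in Ctr-OPCs and 3 with IFN-γ. The pair in both was with an element at chr17:35996882-35997381, 35.7 kb downstream in an intron of A930015D03Rik. Its activity was 1.66 and 1.85, its adjusted contact 0.0202 and 0.0259, and its score 0.0245 and 0.0301. In Ctr-OPCs H2-T23 was also listed with an element over its own coding exon (score 0.0265), which had no counterpart in IFN-γ-OPCs.

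The largest log2 ratio of activity among the 8 elements of these genes that were matched between the tables was at the element printed for H2-T24 and H2-T23, chr17:36023932-36024431 in Ctr-OPCs and chr17:36023637-36024357 with IFN-γ. Its activity was 0.820 in Ctr-OPCs and 1.99 with IFN-γ, 2.43-fold, and the log2 ratio per kb was 0.75. In Ctr-OPCs it was listed with H2-T24 alone. In IFN-γ-OPCs it was listed with H2-T24, H2-T23 (score 0.0438) and Gm11127. A further element between H2-T23 and H2-T22, at chr17:36035250-36036352, was listed in IFN-γ-OPCs with both genes, at scores of 0.0371 for H2-T23 and 0.0344 for H2-T22.

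H2-T22, whose product is a ligand of some γδ T cell receptors, was listed in IFN-γ-OPCs with 3 elements at scores from 0.0212 to 0.0344. It shared 2 of them with H2-T23 and all 3 with the neighbouring gene model Gm6034. Its gene total was 1.57.

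H2-Q6 and H2-Q7, which encode Qa-2 chains, were listed in opposite conditions. H2-Q6 had 5 elements in Ctr-OPCs, with activities from 0.476 to 1.20 and scores from 0.0204 to 0.0417, and no other gene was listed with any of them. For 2 of the 5 the contact was 0.123436, the value of the power law of distance at 1 bin, which 51 of 66637 pairs held. H2-Q7 had 1 element in IFN-γ-OPCs, over its own coding exon, with an activity of 0.690 and a score of 0.0206. Other places in the reference chromosomes matched 99.9% to 100% of the bases of each H2-Q6 element, and 100% of the H2-Q7 element, at 90% identity or more. The highest identity was 94.3% to 99.5% for the H2-Q6 elements and 94.9% for the H2-Q7 element. Coverage joins all matches of an element. The H2-Q6 element at chr17:35429060-35430066 had 1060, with 55 on chromosome 17 and none longer than 509 bp. Which of these copies the reads came from was not tested, so the switch between H2-Q6 and H2-Q7 is uncertain.

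Copies also covered the Ctr-OPC coding exon element of H2-T23 (100%), the IFN-γ-OPC element between H2-T23 and H2-T22 (100%) and the element upstream of H2-T22 (98%). They covered 16.4% and 20.6% of the H2-K1 element and 30.8% and 25% of the H2-D1 element. The H2-K1 element had 14255 and 14276 matches, with 602 and 604 on chromosome 17. The H2-D1 element had 77882 and 4197, with 3467 and 188 on that chromosome. The element between H2-T23 and H2-T22 had 1082, with 49 on that chromosome. Most matches of these elements thus lay on other chromosomes, away from the class I genes of chromosome 17. At that identity and over at least 100 bp, no other place matched the element of H2-T24 and H2-T23, the element 35.7 kb from H2-T23, the H2-Ke6 element or the elements of B2m and Nlrc5.

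H2-M3 was listed in both conditions with the same pair of elements, 2574 and 2575 kb downstream over a non-coding exon of Gm26917, next to gene models annotated as rRNA. Their activities were 29.6 and 43.7 in Ctr-OPCs and 31.6 and 46.5 in IFN-γ-OPCs, against a median of 0.866 and 0.803 over all listed elements. The contact with H2-M3 was 0 in both conditions, and the adjusted contact was 0.00054, which is the pseudocount. The scores were 0.0230 and 0.0339 in Ctr-OPCs and 0.0251 and 0.0368 in IFN-γ-OPCs. These elements were listed with 27 and 65 genes in Ctr-OPCs and 21 and 67 in IFN-γ-OPCs. The pairs of H2-M3 therefore rest on no measured contact, and within 50 kb of its start site no element was listed in either condition.

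B2m had 1 pair in each condition, with different elements. In Ctr-OPCs it was an element in an intron of Patl2, 11.3 kb downstream, with an activity of 0.601 and a score of 0.0208. With IFN-γ the matched element was at 0.551 and was listed with another gene, Trim69. In IFN-γ-OPCs B2m was listed with an element in its own intron at chr2:122148916-122149415, 1.48 kb from the start site, with an activity of 0.602 and a score of 0.0257. Per kb the activity of the Patl2 intron element was 0.781 and 1.10, so its direction turns with the width, 769 bp in Ctr-OPCs and 500 bp with IFN-γ. Within 50 kb of the B2m start site the number of listed elements was 1 in Ctr-OPCs and 7 with IFN-γ. The same count was 4 and 5 for H2-K1 and for H2-D1, 5 and 3 for H2-Q6, 5 and 2 for H2-Q7, 6 and 9 for H2-T22, 7 and 9 for H2-T23, and 1 and 1 for Nlrc5. An element is listed through any gene past the limits of the tables, so these counts also follow the neighbouring genes.

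Nlrc5 was listed in IFN-γ-OPCs with 1 element in its own intron, at chr8:94442889-94444429, 9.30 kb downstream of the start site. The element had an activity of 1.22, an adjusted contact of 0.0296 and a score of 0.0292, and was also listed with 9330175E14Rik. The single element within 50 kb in Ctr-OPCs lay at -41.8 kb from the start site, upstream, and had an activity of 1.08.

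Not every listed element of these windows was more active with IFN-γ. The most active one around H2-K1 in Ctr-OPCs, at -38.3 kb from the start site, had an activity of 3.18 and of 2.20 with IFN-γ.

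**Figure D4:**
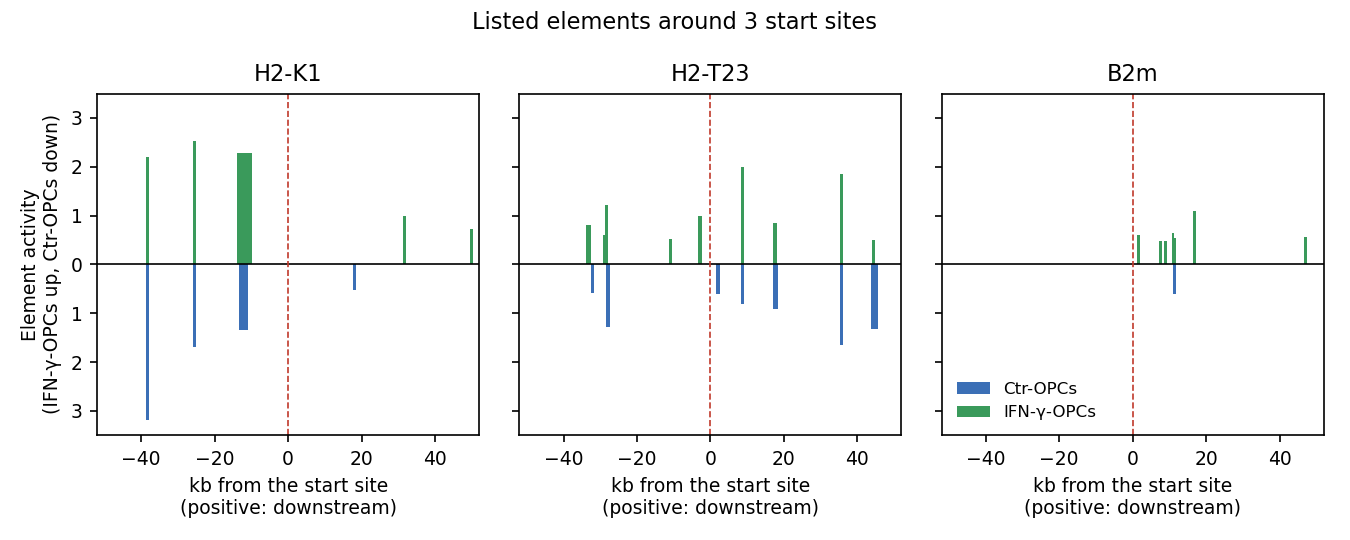
Activity (y axis, deposited signal) of every listed element within 50 kb of the start sites of H2-K1, H2-T23 and B2m (x axis, kb, dashed line at the start site), with IFN-γ-OPCs above the line and Ctr-OPCs below; bars have the width of the element, and narrow ones are widened to be visible. The element 12 kb upstream of H2-K1 is wider and higher with IFN-γ (1.34 to 2.28), as is that 8.67 kb downstream of H2-T23 (0.820 to 1.99), and B2m has 7 elements against 1, while the H2-K1 element at -38.3 kb is lower (3.18 to 2.20).

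Over the 8 elements of these genes that were matched between the tables, 2 were at least 1.5-fold more active with IFN-γ, the H2-K1 and the H2-T24 and H2-T23 elements, against 9.37% of 19332 matched elements. Their log2 ratios of activity had a median of 0.14, and of 0.36 over the 6 elements left without those of H2-M3, against -0.08 for all matched elements. Of the 5 matched pairs, the 2 of H2-M3 had no measured contact, so their ratio is fixed by the pseudocount. Among the other 3, those of H2-D1, H2-K1 and H2-T23, 0 had an adjusted contact at least 1.5-fold higher, against 12% of 29858 pairs, and 3 had a higher one, against 54.6%. The median log2 ratio of contact was 0.36 over these 3 pairs, 0.30 over all 5 and 0.05 over all matched pairs, with 80% of the last between -0.53 and 0.64. The contact differences of H2-D1, H2-K1 and H2-T23 were inside that range.

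**Figure D5:**
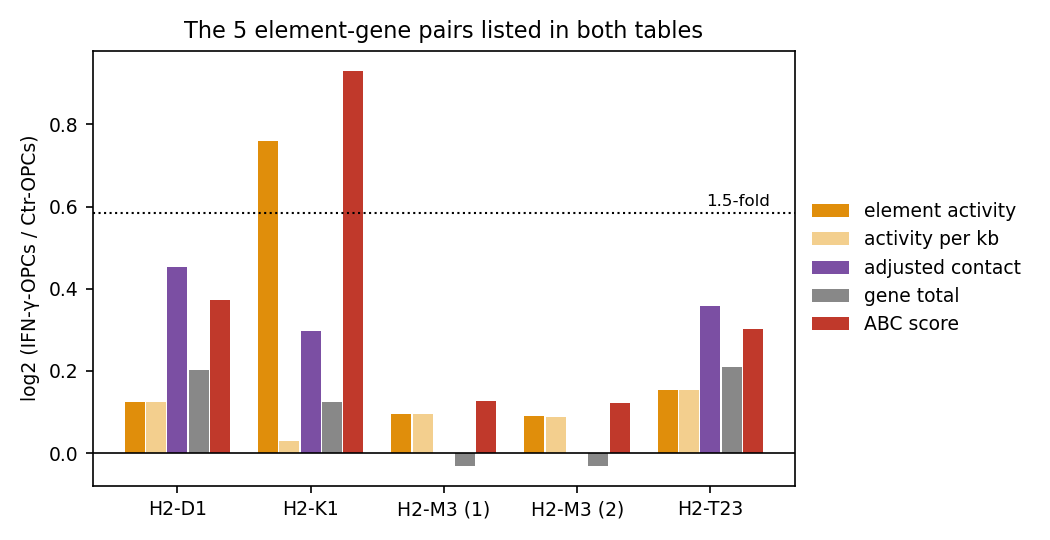
Log2 ratio of IFN-γ-OPCs over Ctr-OPCs (y axis) for the 5 element-gene pairs listed in both tables (x axis), with bars for element activity, activity per kb, adjusted contact, gene total and ABC score, and a dotted line at 1.5-fold. Activity exceeds the line at H2-K1 (0.76) but activity per kb does not (0.03), and contact is the larger of activity and contact at H2-D1 (0.45) and H2-T23 (0.36).

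The gene total was higher with IFN-γ in 4 of the 5 genes listed in both tables, against 35.7% of 20321 genes. H2-D1 had 1.71 in Ctr-OPCs and 1.97 with IFN-γ, H2-K1 1.72 and 1.88, H2-T23 1.37 and 1.59, and B2m 0.875 and 0.931. H2-M3 had 0.696 and 0.681, a direction that turns when the median over all genes is subtracted. With the power-law contact in place of the measured one, the log2 ratio of H2-D1 was 0.02 instead of 0.20, that of H2-T23 0.32 instead of 0.21 and that of B2m 0.30 instead of 0.09. The log2 ratios ran from -0.03 at H2-M3 to 0.21 at H2-T23, with a median of 0.13 against -0.07 over all genes. H2-D1 and H2-T23 lay just past the upper end of the range that holds 80% of all genes, -0.24 to 0.20. None of the 5 totals was 1.5-fold higher, against 0.615% of all genes. A total may include the gene's own promoter, so it cannot be taken as independent of the promoter quantile.

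In Ctr-OPCs H2-Q6 had a total of 1.53, and in IFN-γ-OPCs H2-Q7 had 1.73 and Nlrc5 1.24. The heavy chain genes of the K, D, Q and T regions thus had totals from 1.37 to 1.97, above those of B2m and H2-M3 in both conditions.

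The genes that share the most listed elements with these members, by the Jaccard index over both tables, are given here. The index was 0.6 for H2-K1 with Ring1, 0.75 for H2-D1 with Mir8094, 1 for H2-T22 with Gm6034, 0.375 for H2-T23 with H2-T24 and 0.125 for B2m with Trim69. It was 1 for Nlrc5 with 9330175E14Rik, over 1 element, and 1 for H2-M3 with AY036118 and CT010467.1, over 4. H2-Q6 and H2-Q7 shared no listed element with any gene.

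Among 20 other class I genes, 10 were listed in Ctr-OPCs, 12 in IFN-γ-OPCs and 8 in both. The quantile was higher with IFN-γ in 7 of the 8, with a median difference of 0.129, and the gene total in 6 of 8, with a median log2 ratio of 0.14. H2-T24, which shares elements with H2-T23, had quantiles of 0.725 and 0.953 and 0 and 1 connections. H2-M2 was listed in Ctr-OPCs through the 2 distant elements of H2-M3 alone. H2-M9 and H2-M10.1 were listed with IFN-γ, each with 1 of those elements and 1 other element.

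Of 13 genes for peptide supply and loading, 8 were listed in each condition and 6 in both, and quantile and gene total were higher with IFN-γ in all 6. The total of Psmb8, an immunoproteasome subunit, was 1.66 and 2.59, and that of Tap2, a chain of the peptide transporter, 1.60 and 2.41. These were the totals of the list past 1.5-fold. Tap1 and Psmb9, which lie next to each other, had the same totals of 1.59 and 2.15. Connections of the list numbered 3 in Ctr-OPCs and 2 with IFN-γ. The log2 ratios of Psmb8 (0.64), Tap2 (0.59), Tap1 and Psmb9 (0.43) were larger than that of each of the 5 class I and B2m genes, and those of Tapbpl (0.16) and Psmb10 (0.03) were smaller than those of H2-D1 and H2-T23.

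Of 12 genes for factors at class I promoters, 7 were listed in Ctr-OPCs and in both, and 8 in IFN-γ-OPCs. The total was higher in 4 of the 7 and lower in 3, with a median log2 ratio of 0.02. Irf1, a transcription factor of the interferon response, was the additional one, at a quantile of 0.992. Rfxap, Rfxank, Creb1 and Nfyc, whose products bind the SXY module or belong to its complexes, had log2 ratios of the total from -0.09 to 0.02. Over the 7 genes the quantile was higher with IFN-γ in 4, with a median difference of 0.0228. Nfyc went from 0.594 to 0.408, below the range that holds 80% of all genes, and Irf2, another interferon regulatory factor, from 0.870 to 0.978.

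All 7 OPC markers were listed in both conditions, with quantiles from 0.851 to 0.995 in Ctr-OPCs and from 0.815 to 0.994 with IFN-γ. Gene by gene the quantile was higher with IFN-γ in 2 of the 7, with a median difference of -0.00876, and the gene total was lower in 5 of the 7. Of 7 markers of microglia and macrophages, which also carry class I, 3 were listed in Ctr-OPCs and 5 with IFN-γ, with quantiles up to 0.782 and 0.825, and Itgam and C1qa were listed in neither. The quantile of Csf1r was higher with IFN-γ, 0.473 and 0.625, while its connections numbered 2 in Ctr-OPCs and 0 with IFN-γ. Cx3cr1 stood at 0.621 and 0.604, and P2ry12 at 0.782 and 0.825 with a log2 ratio of the total of 0.51. Aif1 (0.471) and Tmem119 (0.744) were listed with IFN-γ only. Astrocyte markers were listed 3 of 4 in both conditions, neuron markers 4 of 4, endothelial markers 0 and 2 of 3, and T cell markers 1 of 3 in each. The part of other cells in the class I values was not tested.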

How the data were processed

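H3K27ac HiChIP was measured in 6 libraries of cultured OPCs, 3 per condition. Per the study's methods the authors aligned the reads to mm10 and removed duplicates with HiC-Pro. They ran the ABC model on the ATAC-seq and CUT&RUN reads of each condition and took contact from the HiChIP data. Default parameters are stated for the candidate elements and their activity. The labels give each condition 1 table for its 3 libraries, so libraries could not be compared or left out. Deposited element activity is a signal from ATAC-seq and H3K27ac coverage. Deposited ABC scores are fractions of the gene total, and power-law scores and promoter quantiles also lie between 0 and 1. Deposited contacts and products of activity and contact have the unit score, at a bin of 5 kb. How the authors scaled them between conditions is not given in the sources used here. The short tables held the same scores and were not used.

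To recover the gene total, the deposited numerator of a pair was divided by its score, taken as the median over the pairs of a gene. Elements were matched between tables by mutual best overlap of at least 1 bp, and backgrounds were taken over all genes, elements or pairs. Positions are 1-based, and genes and features were taken from GENCODE M21, which held 31937 of the 32049 target genes. Sequence copies were alignments by BLAST 2.17.0 of at least 100 bp at 90% identity. Python 3.11.15, pandas 2.3.3, NumPy 2.4.6 and matplotlib 3.10.9 were used, and the matching and the motif search were tested on simulated data. The 9 genes, the lists and the motifs were chosen with earlier results of these data known. From each list the 5 genes with the largest change in gene total, and those sharing an element with a member, could be named. Other genes of the lists that are named were chosen after their values were seen. One gene of the list of factors at class I promoters is not reported here, and the counts of that list leave it out.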

Additional observations from a re-analysis of the deposited data

How the results depend on the processing

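Against 2 more connections at the cut-off of 0.05, the difference was 1 over all deposited pairs, 0 at a cut-off of 0.1 and 0 with the power-law score, which gave 2 connections in each condition. It was 2 with equal numbers of top-scoring pairs and without H2-M3. Over all deposited pairs H2-D1 had 1 pair fewer with IFN-γ, a difference of -1. The median log2 ratio of the gene total was 0.13 and became 0.19 after subtracting the median over all genes, by which H2-M3 turned from -0.031 to 0.035. The median log2 ratio of element activity was 0.14 and became 0.22 after subtracting the median over all matched elements, 0.44 over the 2 pairs that were a connection and 0.36 without H2-M3. The cause of these differences was not tested. The median contact kept its direction under the alternatives run for it, of which the same 5 kb bin setting kept all 5 pairs and so repeated the main value. For the promoter quantile the 1 alternative was to leave out H2-M3. It could not turn the direction, because all 5 differences were positive. Leaving out H2-M3 and taking activity per kb were chosen after seeing the data. No paired analysis was possible because the 3 libraries of a condition share 1 table, and for the same reason no library could be left out. The depth behind a score is unknown.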
